A study of Kryptolebias marmoratus with 5 samples.

Results

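The genes described here encode the proteins of the cytosolic ribosome and the factors that start and extend translation. They were taken from the annotation of the mangrove killifish Kryptolebias marmoratus by their symbols, whatever the case. A symbol had to begin with rpl and then a digit or p, rps and then a digit, rack1, eif1 to eif6, eef1 or eef2. The kinases and partners named rps6k were left out. The rule gave 138 of 22090 genes, and all 138 passed the minimum mean of 2 CPM (estimated reads scaled to a common library size) that 15362 genes passed. They were divided by role into 77 ribosomal proteins (47 of the large subunit and 30 of the small subunit, rack1 included), 44 translation factors, and 17 associated genes that carry such a symbol but act as regulators, modifying enzymes or distant relatives of the factors. Of 80 ribosomal proteins named in textbooks, 77 were found by symbol, 3 of them outside the rule, rpsa and faua included. Rpl41 and rps26, the elongation factors eef1a1 and eef2 and the helicase eif4a1 had no gene of that symbol and are not analysed here.

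RNA-seq was carried out on 5 libraries of pooled whole embryos, 1 library per group, each pool described as 20 to 25 embryos at about stage 17, with stages 16 and 18 possible, grown at 26°C in brackish water. WT was the Hon9 strain, the progenitor of both mutant lines. The stl (shorttail, R109) pool, labelled as (-/-) mutant, held embryos with the mutant phenotype of its line. That line carries a recessive ENU-induced missense change in noto, a notochord transcription factor. The btl (balltail, labelled R228a) pool, also labelled as (-/-) mutant, held embryos with the mutant phenotype of another line. The btl line carries such a change in msgn1, a transcription factor of the paraxial mesoderm. The stl-sibling and btl-sibling pools were normal-looking embryos of the same lines and so could hold carriers of the mutation, and all 3 normal pools (WT and both siblings) came from self-fertilizing stock. Every mutant was compared with its own sibling. With 1 library per group there is no replicate check and no test of any difference, and the intervals given below cover counting error only.

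Ribosomes consist of a small subunit, which reads the mRNA, and a large subunit, which joins the amino acids, and most of their proteins are present in the same number of copies in every particle. Translation starts when initiation factors (eIFs) bring the initiator tRNA and the capped mRNA to the small subunit, and it proceeds with the elongation factors eEF1 and eEF2. In vertebrates the mRNAs of ribosomal proteins and of several elongation factors begin with a terminal oligopyrimidine tract and are translated together according to growth conditions. That control acts on translation, which RNA-seq does not measure.

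The mRNAs of ribosomal proteins were short and abundant. Their coding sequences ran from 195 nt (rpl29) to 1212 nt (rpl3), with a median of 456 nt, and their mean level over the libraries, in TPM, a unit that also corrects for length, ran from 238.9 for rpl5a to 6712 for rps28 with a median of 3190. The most abundant after rps28 were rpl36a at a mean of 6294 TPM, rpl39 at 5593, rps27.1 at 5026 and rpl37 at 4926. The least abundant after rpl5a were rps27.2 at 252.5 TPM and rpl22 at 647.4. Translation factors were longer and scarcer, with coding sequences of 342 nt (eif1) to 5448 nt (eif4g3a), a median of 1129.5 nt, and a median mean level of 149 TPM. The eEF1 subunits eef1b2 and eef1g led this class with means of 1187 and 1126 TPM, followed by eif5a at 1001, eif1 at 670.3 and eif1axb at 406.8, and the scarcest were eif4g3a at 13.4, eif3eb at 14 and eif2b3 at 25.5. The 17 associated genes had means of 2.82 (eef1akmt3) to 140 TPM (eif4ebp3l, a repressor of the cap-binding protein eIF4E). Ribosomal protein genes were placed on 23 linkage groups, with at most 8 on any of them, so the class is spread over the genome.

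Ribosomal proteins took a larger part of the btl library than of any other. They held 16.0% of the estimated reads of btl and 9.68% of those of its sibling, and 10.9% in WT, 10.5% in stl and 10.8% in its sibling. As a share of TPM they held 30.2% in btl and 22.4% in its sibling, and 23.1% in WT, 23.2% in stl and 23.5% in its sibling. The 4 libraries other than btl thus lay within a narrow band, btl-sibling at its lower edge and btl well above it. Translation factors held 1.31% of the reads of btl and 1.28% of those of its sibling, and 1.24% in WT, 1.28% in stl and 1.31% in its sibling. Their share of TPM was 0.911% in btl, the lowest of the libraries, and 0.957% to 1.08% in the others.

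**Figure D1:**
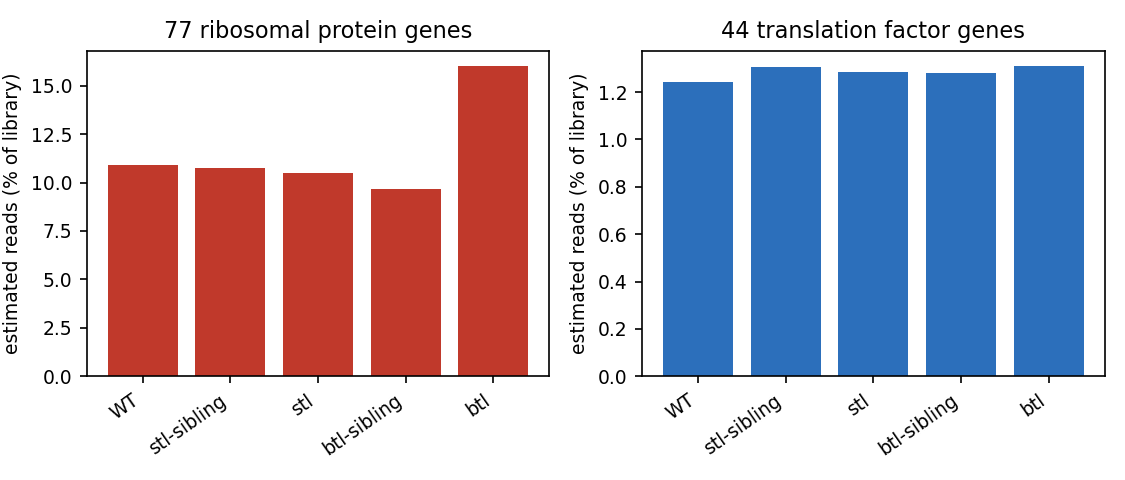
Share of all estimated reads of a library (y axis, percent) that fell on the 77 ribosomal protein genes (left) and the 44 translation factor genes (right) in each of the 5 libraries (x axis), with a scale of its own in each panel. The ribosomal protein bar of btl stands at 16.0%, against 9.68% to 10.9% in the other libraries, while the translation factor bars lie between 1.24% and 1.31%.

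Gene by gene, btl again stood highest and btl-sibling mostly lowest among the ribosomal proteins, while the order in between was not counted. Scaled to CPM with TMM factors, all 77 ribosomal proteins had their highest value in btl, and 75 of 77 had their lowest in btl-sibling, the other 2 in stl. The median ribosomal protein stood at 1134 CPM in btl-sibling and 2096 in btl, next to 1384 in WT, 1292 in stl-sibling and 1247 in stl. Of the 44 translation factors, 28 were highest in btl, and their median was 230 CPM in btl, 190 in btl-sibling, 193 in stl, 199 in its sibling and 195 in WT.

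In btl against btl-sibling, the question is how the ribosome and its factors compare between msgn1 mutants and normal embryos of the same line. The median log2 fold change of the 77 ribosomal proteins was 1.0, with an SD across genes of 0.381 and a range of 0.13 (rpl5a) to 1.72 (rps21). All 77 were above 0, with a 95% counting interval that also lay above 0. At least 1.5-fold higher were 64 of 77, where 14.1% of all genes were, and at least 2-fold higher were 39, where 4.33% of all genes were, and none was 1.5-fold lower, where 11.1% of all genes were. The median of all genes in the same comparison was -0.02, with an SD of 0.57. Set against WT in place of the sibling, the ribosomal proteins gave a median of 0.69 in btl, again with 77 of 77 above 0, of which 47 were at least 1.5-fold higher (8.2% of all genes). The size depends on the scaling: on the TPM scale, where the median of all genes shifted to -0.55, the ribosomal proteins had a median of 0.41 with 62 of 77 above 0, and relative to that median gene all 77 were higher, 61 of them at least 1.5-fold.

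**Figure D2:**
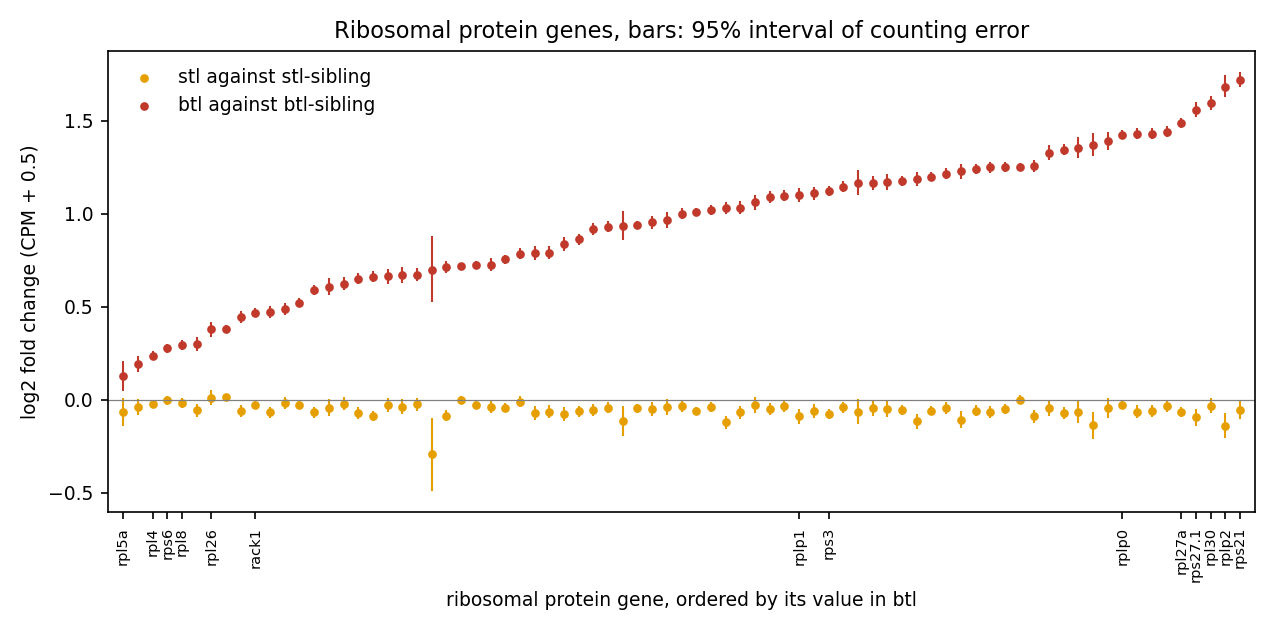
Log2 fold change of CPM + 0.5 (y axis) of each of the 77 ribosomal protein genes (x axis, ordered by the value in btl, with a few genes named) for btl against btl-sibling (red) and stl against stl-sibling (orange), with bars for the 95% interval of counting error. The red points climb from 0.13 for rpl5a to 1.72 for rps21, while the orange points stay between -0.29 and 0.01.

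Both subunits were higher in btl. The 47 large subunit proteins had a log2 median of 0.94, with 37 at least 1.5-fold higher and 22 at least 2-fold higher. The 30 small subunit proteins had a median of 1.02, with 27 at least 1.5-fold and 17 at least 2-fold higher, beside 14.1% and 4.33% of all genes. The members of the large subunit past 2-fold were rpl7, rpl9, rpl11, rpl13a, rpl14, rpl21, rpl22l1, rpl23, rpl27, rpl27a, rpl29, rpl30, rpl32, rpl34, rpl35a, rpl37, rpl37a, rpl38, rplp0, rplp1, rplp2 and rplp2l. Among those of the small subunit were rps2, rps3, rps7, rps9, rps13, rps14, rps15a, rps18, rps20, rps21, rps23, rps24, rps25, rps27.1, rps28 and rps29. Counting error alone would give an SD of 0.021 between the 77 genes, beside the 0.381 observed, and the variation between libraries of 1 group was not measured. In what follows, a gene's log2 fold change is that of btl against btl-sibling unless another pair is named.

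The largest increase was that of rps21, a small subunit protein with a coding sequence of 252 nt (LG8, 3062130 to 3072304 of ASM164957v2). It measured 1703 CPM in btl and 517.1 in its sibling, with 767.9 in WT, 603 in stl and 626.2 in stl-sibling, a log2 fold change of 1.72 in btl (counting interval 1.68 to 1.76). The value in btl exceeded every other library, and the normal libraries also differed among themselves, WT being higher than either sibling. Rpl30, a large subunit protein (LG5, 9544298 to 9547715), measured 702.7 CPM in btl-sibling and 2122 in btl, next to 918.3 in WT, 778.5 in stl-sibling and 761.9 in stl, a log2 fold change of 1.59 (1.56 to 1.63). Rps27.1, a zinc finger protein of the small subunit, went from 605.1 CPM in btl-sibling to 1781 in btl (1.56), with 828.7 in WT, 648.6 in stl and 692.1 in its sibling. Rpl27a went from 1390 to 3897 CPM (1.49), with 1861 in WT, 1543 in stl and 1615 in its sibling. In these genes the order of the libraries was the same, btl above WT, WT above stl-sibling, stl-sibling above stl, and btl-sibling lowest.

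The proteins of the ribosomal stalk, which recruit the elongation factors to the large subunit, were all past 2-fold in btl. Rplp2 (348 nt, LG4, 6419044 to 6420827) measured 861.8 CPM in btl, 268.3 in btl-sibling, 290.3 in stl, 319.7 in its sibling and 420.1 in WT, which gives a log2 fold change of 1.68 (1.63 to 1.74). Its base protein rplp0 (945 nt, LG4, 19191823 to 19194689) measured 4572 CPM in btl and 1703 in its sibling, with 2689 in WT, 2519 in stl and 2570 in stl-sibling, a log2 fold change of 1.42 (1.40 to 1.45). Rplp0 therefore differed between the normal libraries as well, with btl-sibling at -0.66 against WT on the log2 scale, and against WT its value in btl was 0.77. Rplp1 had a log2 fold change of 1.1 and rplp2l, a near copy of rplp2, of 1.18. The high value of rplp0 stood out among ribosomal proteins over 900 nt, whose other 4 members, rpl3, rpl4, rack1 and rps4x, had log2 fold changes of 0.24 to 0.52.

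The 3 ribosomal proteins with the shortest coding sequences were all past 2-fold. Rpl29 (195 nt) went from 313.7 CPM in btl-sibling to 802.1 in btl, a log2 fold change of 1.35, rps28 (210 nt) from 621.1 to 1455 (1.23) and rpl38 (213 nt) from 257.3 to 666.2 (1.37). Rps28, which had the highest mean TPM of all members but not the highest CPM, was at 6021 TPM in btl-sibling and 9179 in btl. It was at 6107 TPM in WT, 6211 in stl-sibling and 6043 in stl. Its levels in the other 4 libraries were thus close to each other, and btl was apart on this scale too.

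At the other end stood 13 ribosomal proteins that missed 1.5-fold in btl. Among them were rpl5a, rpl4, rps6, rpl8, rpl13, rpl26, rpl3, rpl15, rack1, rpl12, rpl10a and rps4x, in rising order. Rpl5a, which binds 5S rRNA (897 nt), measured 264.3 CPM in btl, 241.9 in btl-sibling, 230.8 in stl, 241.5 in its sibling and 243.6 in WT, which gives a log2 fold change of 0.13 (0.05 to 0.21). Rpl4, which lines the exit tunnel of the large subunit, measured 3243 CPM in btl and 2752 in btl-sibling, in a range of 2831 to 2946 in the other libraries (0.24). Rps6, the small subunit protein phosphorylated by S6 kinase, measured 2190 CPM in btl-sibling and 2652 in btl, next to 2456 in WT, 2499 in stl-sibling and 2494 in stl (0.28), and rpl8 measured 2146 CPM in btl and 1750 in btl-sibling, with 1961 to 2051 in the others (0.29). In these genes btl was the highest library on the CPM scale by a small margin, but the direction turned on the TPM scale. For example, rpl5a was at 197.9 TPM in btl and at 230.3 to 272.2 TPM in the other libraries, btl-sibling the highest. On that scale the median of all genes was itself at -0.55 in btl against btl-sibling. Relative to that median gene, all 77 ribosomal proteins were higher, these included.

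The share of reads between near copies of a ribosomal protein was measured as well, with the limit that reads of similar copies may have been split between them by the quantification. Rplp2 took 33.2% of the reads of rplp2 and rplp2l together in btl (counting interval 32.6% to 33.8%, exact Clopper-Pearson), 26.0% in btl-sibling, 28.9% in WT, 26.2% in stl and 26.5% in its sibling. Rps27.2 took 3.45% of the reads of rps27.2 and rps27.1 in btl (3.17% to 3.75%), 6.08% in btl-sibling, 5.39% in WT, 4.70% in stl and 5.36% in its sibling. The proportion within both pairs was thus outside the range of the normal libraries in btl. For rps27.2 it was outside that range in stl as well, in the same direction. Rpl22l1, a relative of rpl22 with tissue-limited use in mammals, took 60.0% of its pair in btl and 56.1% in btl-sibling, with 57.4% in WT, 58.9% in stl and 58.1% in its sibling. Here too btl lay above the normal libraries. Stl did so by less, and its counting interval (57.6% to 60.2%) included the share of its sibling. Rpl22l1 itself went from 237.5 CPM in btl-sibling to 532.8 in btl (1.16) and rpl22 from 185.8 to 355.9 (0.94).

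Coding sequence length moved with these values over the whole transcriptome. In btl against btl-sibling, genes outside the members in the shortest of 10 equal classes of length (114 to 591 nt) stood at a median of 0.60 on the log2 scale, and the median went down through the classes to -0.35 in the longest. Across genes, Spearman's rho between length and log2 fold change was -0.483 for genes outside the members, -0.505 for the 77 ribosomal proteins and -0.558 for the 44 translation factors, all genes of the same libraries and so a description only. Up to 300 nt, 203 other genes had a median of 0.85 and 11 ribosomal proteins one of 1.23. From 301 to 450 nt, 540 other genes had a median of 0.75 and 27 ribosomal proteins one of 1.1, and from 451 to 600 nt, 816 other genes had a median of 0.44 and 18 ribosomal proteins one of 0.97. At each of these lengths the ribosomal proteins stood above other genes as short, by less than their full fold change.

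**Figure D3:**
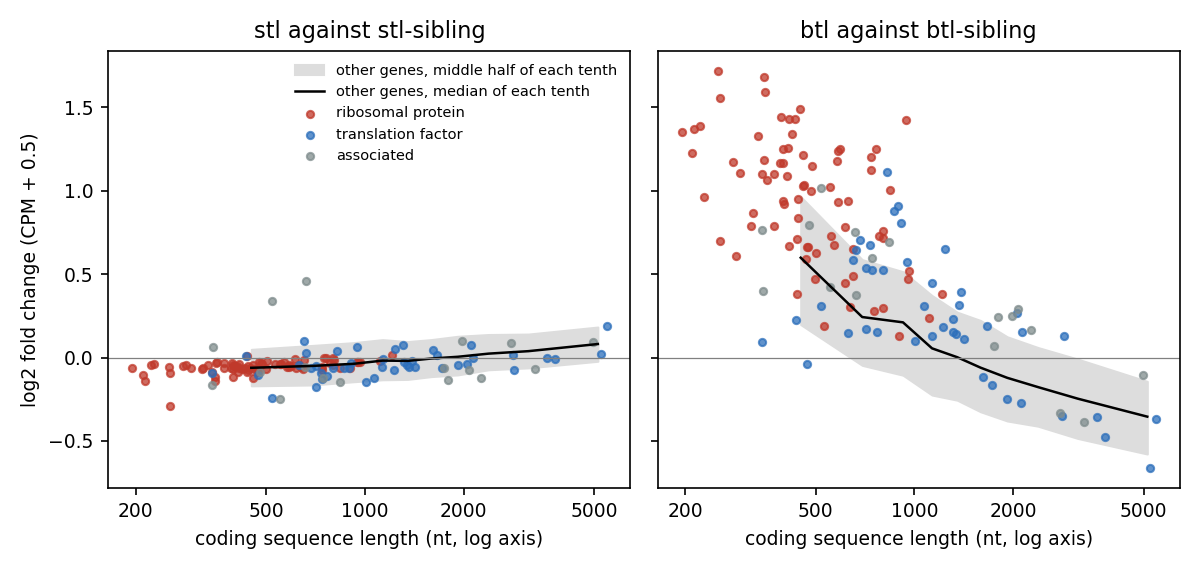
Log2 fold change of CPM + 0.5 (y axis) against coding sequence length (x axis, nt, log scale) for stl against stl-sibling (left) and btl against btl-sibling (right), with points for ribosomal proteins (red), translation factors (blue) and associated genes (grey). The line and the band give the median and the middle 50% of the other genes in each of 10 length classes, plotted at the median length of the class, and in btl the line descends from 0.60 to -0.35 with most red points above it.

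With the median of other genes of like length subtracted, in 20 bins, the ribosomal proteins had a log2 median of 0.40 in btl, with 70 of 77 above 0 and 21 at least 1.5-fold higher, where 9.2% of all genes were after the same subtraction. The large subunit had a median of 0.34 and the small subunit of 0.53. Rplp0 then had the highest value of the class, 1.23, followed by rpl13a at 1.02, rpl7 at 0.97, rps21 at 0.95, rplp2 at 0.91, rps3 at 0.89 and rpl30 at 0.82. The lowest was rpl26 at -0.39, and rpl5a stood at -0.11. Against WT the length-subtracted median was 0.32 with 68 of 77 above 0 and 11 at least 1.5-fold higher, where 5.28% of all genes were.

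Translation factors were divided in direction in btl, with 34 of 44 above 0 and 10 below. Their median log2 fold change against btl-sibling was 0.18, with a range of -0.66 (eif4g1a) to 1.11 (eif3f). Their SD across genes was 0.39, close to the 0.38 of the ribosomal proteins. Counting intervals lay above 0 for 32 factors, below 0 for 8 and included 0 for 4. At least 1.5-fold higher were 8 of 44 (14.1% of all genes), 1 was at least 1.5-fold lower (11.1% of all genes) and 1 was at least 2-fold higher, so the shares were near those of the transcriptome, or below for the lower side. The direction of their median depended on the scaling, with -0.02 for CPM without TMM factors and -0.40 on the TPM scale, where the median of all genes was -0.22 and -0.55. Relative to the median gene the factors stood 0.21 higher with TMM, 0.20 without and 0.15 in TPM. The 17 factors of at most 900 nt had a median of 0.53 and the 27 longer ones of 0.14. Other genes of at most 900 nt had 0.37 and the 72 ribosomal proteins up to that limit 1.01. Median coding sequences of these short sets were 711 nt for factors, 636 nt for other genes and 441 nt for ribosomal proteins. From 114 to 591 nt, 55 ribosomal proteins had a median of 1.09 and 4 factors one of 0.16. From 594 to 810 nt the medians were 0.73 and 0.53. From 813 to 1026 nt they were 0.52 and 0.84, and from 1029 to 1236 nt both were 0.31, with few genes in each.

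The complex eIF3 is the scaffold that holds the initiation complex on the small subunit. Its 13 genes here include the copies eif3ea and eif3eb, so they are not 13 different subunits. Their median log2 fold change in btl was 0.27, and 3 of 13 were at least 1.5-fold higher (14.1% of all genes). Eif3f (822 nt, LG20, 3238264 to 3241032) measured 600.6 CPM in btl, 277.9 in btl-sibling, 308.8 in stl, 300.5 in its sibling and 339.8 in WT, which gives a log2 fold change of 1.11 (1.05 to 1.17). Eif3g measured 521.6 CPM in btl and 278.3 in its sibling, with 334.7 in WT, 262.3 in stl and 274.5 in stl-sibling (0.90). These were highest in btl among the libraries, and eif3k followed at 0.65. The longest subunits, eif3s10 and eif3c, and also eif3s6ip went the other way without reaching 1.5-fold, while eif3ba, the next in length after eif3c, stood at 0.27. Eif3s10, the symbol in use here for the eIF3a subunit (3804 nt), measured 661.6 CPM in btl-sibling and 475.2 in btl, next to 587.6 in WT, 670.3 in stl-sibling and 664.8 in stl (-0.48, interval -0.53 to -0.42), and eif3c measured 436.2 CPM in btl, 555.3 in btl-sibling and 526.7 to 565 in the others (-0.35). Both had their lowest value in btl. With the length trend subtracted, the 13 genes had a median of 0.29, and 2 were at least 1.5-fold higher (9.2% of all genes). Eif3s10 then stood at -0.20, eif3c at -0.12 and eif3s6ip at -0.08.

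The cap-binding complex eIF4F joins the mRNA cap to the small subunit. Grouped with partners and relatives, among them eif4a3, eif4e2, eif4g2a and eif4g2b, it gave a median of 0.15 over 12 genes. Before subtraction of the length trend, its scaffold eif4g1a (5238 nt, LG20, 11468631 to 11487469) was the only member of the 138 at least 1.5-fold lower in btl. It measured 271.2 CPM in btl, 429.3 in btl-sibling, 360.3 in stl, 355.2 in its sibling and 361.2 in WT, which gives a log2 fold change of -0.66 (-0.73 to -0.59). Btl was the lowest and btl-sibling the highest of its libraries, and against WT the value was -0.41, which missed 1.5-fold. The related eif4g3a went from 94.99 CPM in btl-sibling to 73.52 in btl (-0.37), with 79.39 in WT, 117.3 in stl and 102.8 in its sibling. Other genes in the longest length class, from 3807 nt, had a median of -0.35 in btl against btl-sibling. With the length trend subtracted, eif4g1a stood at -0.27 and eif4g3a at 0.03. The factor at least 1.5-fold lower was then eif1, at -0.68. The helicase eif4a2 (0.65) was at least 1.5-fold higher. Among the cap-binding proteins eif4ea stood at 0.58 and eif4eb at 0.54, and eif4e1c, a copy found in fishes, at 0.15 with an interval of -0.03 to 0.32.

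The factors that act on the initiator tRNA and on subunit joining varied in btl, most of them by less than 1.5-fold. Eif1, which guides start codon choice (342 nt), measured 199.6 CPM in btl and 187.3 in its sibling, with 172.1 in WT, 182.2 in stl and 194.1 in stl-sibling (0.09), and eif1axb had a log2 fold change of 0.22. The 3 subunits of eIF2, the carrier of the initiator tRNA, had a median of 0.11, with eif2s1b the highest at 0.57. The 5 subunits of eIF2B, the exchange factor of eIF2, had a median of 0.31, with eif2b1 alone past 1.5-fold (0.80). Eif5a, which helps ribosomes through difficult peptide bonds (471 nt), measured 447.1 CPM in btl-sibling and 436 in btl, next to 433.5 in WT, 478.3 in stl-sibling and 444.5 in stl (-0.04, interval -0.10 to 0.02). Although eif1 and eif5a are as short as many ribosomal proteins, neither had a fold change near theirs, and after subtraction of the length trend they stood at -0.68 and -0.49. Eif5b (3588 nt), which joins the subunits, went from 212.5 CPM to 166.2 (-0.35), with 189.9 in WT, 203.4 in stl and 203.9 in its sibling. With the length trend subtracted, eif5b stood at -0.08. Eif6, grouped with eif5b here, stood at 0.53.

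Of the elongation factor genes found, 5 carry an eEF1 symbol, and their median log2 fold change in btl was 0.67, with 3 of 5 at least 1.5-fold higher (14.1% of all genes). Eef1b2, a nucleotide exchange subunit, measured 1300 CPM in btl, 799.1 in btl-sibling, 786.4 in stl, 820 in its sibling and 762.6 in WT (0.70, interval 0.66 to 0.74). Eef1db measured 248.7 CPM in btl and 135.2 in its sibling, with 165.7 in WT, 153.6 in stl and 160.1 in stl-sibling (0.88), and its copy eef1da had 0.67. In these 3 genes btl was the highest library. Eef1g, a structural subunit of the same complex, measured 1595 CPM in btl-sibling and 1869 in btl, next to 1777 in WT, 1852 in stl-sibling and 1817 in stl (0.23), which left btl level with stl-sibling. Eef1e1, known in mammals as a part of the complex of aminoacyl-tRNA synthetases despite its symbol, had 0.31. With the length trend subtracted, the 5 genes had a median of 0.44. Of these, 1 was then at least 1.5-fold higher, where 9.2% of all genes were.

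The 17 associated genes were at a log2 median of 0.37 in btl, with 6 at least 1.5-fold higher (14.1% of all genes) and none lower (11.1%). Past 2-fold was eef2kmt, a methyltransferase that acts on eEF2, at 2.41 CPM in btl-sibling and 5.38 in btl (1.01, with a wide interval of 0.47 to 1.87 from few reads). The others past 1.5-fold were rps19bp1 (0.80), eif4ebp3l (0.77), eef1akmt1 (0.75), eef1akmt2 (0.69) and rpl7l1 (0.60). With the length trend subtracted, the 17 genes had a median of 0.34. None was then at least 1.5-fold higher, where 9.2% of all genes were. Among the kinases that phosphorylate eIF2 under stress, eif2ak1 stood at 0.25, eif2ak2 at 0.29, eif2ak3 at -0.39 and eif2ak4 at -0.10, none past 1.5-fold. With the length trend subtracted, the kinases stood at 0.38, 0.42, -0.11 and 0.22 in the same order.

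In stl against stl-sibling, the same question asked of noto mutants, no member passed 1.5-fold in either class, where 1.22% of all genes were higher and 2.43% lower by that much. The ribosomal proteins had a log2 median of -0.05, with an SD across genes of 0.041, and 73 of 77 were below 0. Counting intervals lay below 0 for 55 of them and included 0 for the other 22. The small offset turned with the reference, since the stl library gave a median of -0.16 with 72 of 77 below 0 against WT and of 0.13 with 75 of 77 above 0 against btl-sibling, and after subtraction of the length trend it was 0.00. Other genes in the shortest length class had a median of -0.06 in this comparison.

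The lowest ribosomal protein in stl was rps27.2, the scarce copy of rps27, at 63.72 CPM in btl, 39.16 in btl-sibling, 31.95 in stl, 39.18 in its sibling and 47.24 in WT, which gives a log2 fold change of -0.29 in stl (-0.49 to -0.10). Next came rplp2 and rpl38 at -0.14, rps13 at -0.12, and rpl22 and rplp2l at -0.11. The highest were rpl3 and rpl26 at 0.01, with rpl7a, rpl13a and rps6 at about 0. Translation factors had a median of -0.04 and ran from -0.24 (eef1e1) to 0.19 (eif4g3a), and the interval included 0 for 30 of 44. The lowest after eef1e1 were eif4eb at -0.18, eif2s2 at -0.15, eif6 at -0.13 and eif2b2 at -0.12, and the highest after eif4g3a were eif4ea at 0.10, eif4g2b and eif5 at 0.07 and eif2s1b at 0.06.

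The 3 normal libraries give the only available measure of how much these genes vary between pools without the mutant phenotype. Against WT, the ribosomal proteins had a median of -0.10 in stl-sibling and of -0.29 in btl-sibling, where 76 of 77 counting intervals lay below 0. Length also moved with these differences, with a Spearman's rho over other genes of 0.284 in stl-sibling and 0.417 in btl-sibling. With the length trend subtracted, the median was 0.05 in stl-sibling, with 59 of 77 above 0. In btl-sibling it was -0.09, with 11 of 77 above 0, and between the siblings 0.14. The values that follow are without this subtraction unless it is named. The genes at least 1.5-fold lower in btl-sibling than in WT were rplp0 and rplp2, 2 of 77, where 3.51% of all genes were. Between the siblings, stl-sibling was higher than btl-sibling by a median of 0.19, with rplp0 at 0.59 as the only ribosomal protein at least 1.5-fold higher (3.89% of all genes). The SD over the normal libraries of the median log2 CPM was 0.146 for ribosomal proteins and 0.0350 for translation factors. The median of 1.0 in btl was well outside these differences, and the median of -0.05 in stl was within them. With the length trend subtracted, the median in btl against btl-sibling was 0.40, beside 0.05, -0.09 and 0.14 among the normal libraries. Btl-sibling was the lowest of the normal libraries, and the medians of btl against WT (0.69) and against stl-sibling (0.78) were smaller than that against its own sibling.

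**Figure D4:**
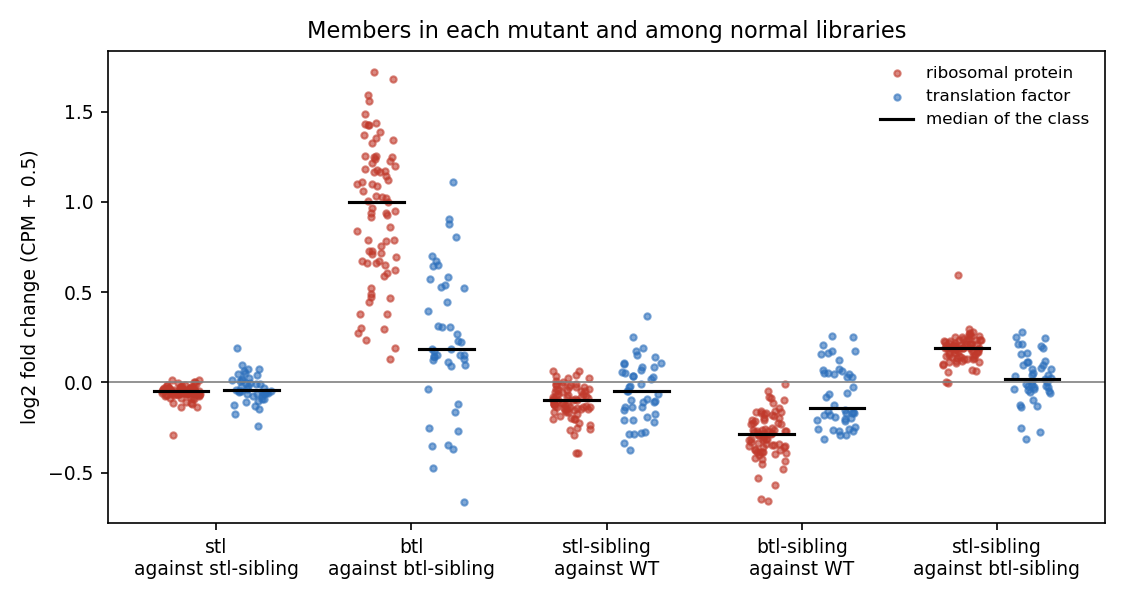
Log2 fold change of CPM + 0.5 (y axis) of each ribosomal protein (red) and translation factor (blue) in the mutants against their siblings and in the 3 comparisons among normal libraries (x axis), with a black line at the median of each class. The ribosomal protein line is at 1.0 in btl and at -0.05 in stl, and lies at -0.10, -0.29 and 0.19 among the normal libraries.

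The ordering of ribosomal proteins in btl against btl-sibling was similar in WT against stl-sibling, a pair with no library in common. It was not similar in every such pairing. Across the 77 genes, the log2 fold change of btl against btl-sibling and that of WT against stl-sibling had a Spearman's rho of 0.746 and a Pearson's r of 0.742, although the WT difference had a median of only 0.10 in that direction. Over the 44 translation factors rho was 0.516, and over 15224 other genes it was 0.441. With the length trend subtracted from both comparisons, rho was 0.677 for ribosomal proteins and 0.372 for translation factors. Other pairings without a common library gave lower values across the 77 ribosomal proteins. Between btl against WT and stl-sibling against btl-sibling rho was 0.225. Between btl against btl-sibling and stl against stl-sibling it was -0.327. Genes of a class share their libraries, lengths and sequence composition, so these values are descriptions.

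**Figure D5:**
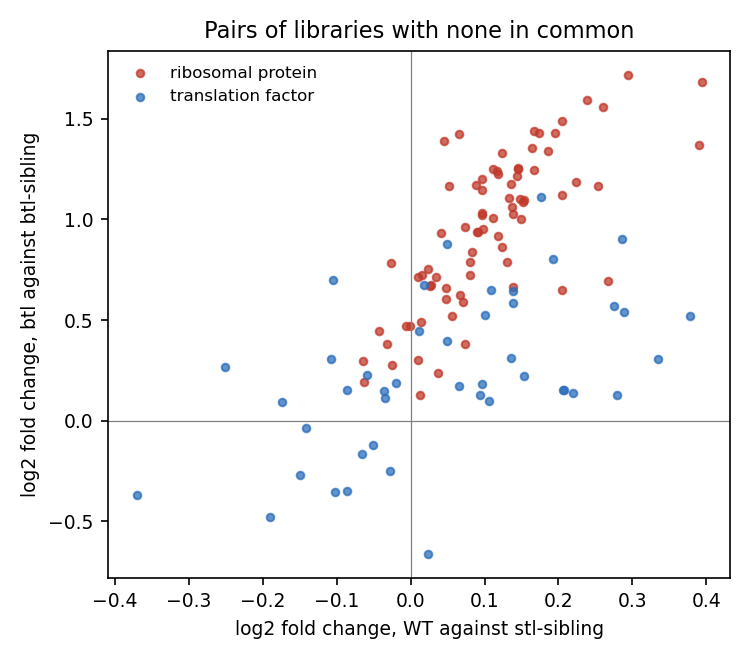
Log2 fold change of btl against btl-sibling (y axis) set against that of WT against stl-sibling (x axis) for ribosomal proteins (red) and translation factors (blue), each point a gene. The red points rise together with a Spearman's rho of 0.746, so the ribosomal proteins that stood highest in btl also tended to be higher in WT than in stl-sibling.

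Genes near the class but outside the symbol rule help to place it. The 77 mitochondrial ribosomal proteins, which translate the mitochondrial genome and are also short, were at a log2 median of 0.64 in btl, with 42 at least 1.5-fold and 15 at least 2-fold higher, and the 67 nuclear genes of the respiratory chain had 0.77, with 44 and 18, beside 14.1% and 4.33% of all genes. With the length trend subtracted, their medians were 0.23 and 0.20, and 10 and 9 genes were at least 1.5-fold higher, beside 0.40 and 21 for the cytosolic ribosomal proteins. These are 13% and 13.4% of the mitochondrial and respiratory genes, not far above the 9.2% of all genes. Of the 3 ribosomal proteins outside the rule, faua was at 1.40 and rpsa at -0.04. The nascent chain complex (4 genes, from nacad at -0.75 to btf3 at 1.02) had a median of 0.63.

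Genes that build the ribosome or feed it had medians near 0 or below. Over 98 ribosome biogenesis genes the median in btl was -0.01, from ddx10 at -0.70 to polr1d at 1.18, with 10 at least 1.5-fold higher and 2 lower, both below the 14.1% and 11.1% of all genes. The 20 cytosolic aminoacyl-tRNA synthetases had a median of -0.23, with eprs1 the lowest at -0.71, and 1 gene was lower and none higher by 1.5-fold. The 6 release and recycling factors had 0.01, and 20 genes of translation control had -0.23 with none past 1.5-fold. The 4 other genes with known terminal oligopyrimidine mRNAs had -0.15, from npm1b at -0.31 to tpt1 at 0.31. Median coding sequences were 1596 nt for biogenesis genes, 2208 nt for synthetases, 2322 nt for translation control and 880.5 nt for these 4 genes. Other genes had medians of -0.06 at 1470 to 1734 nt, -0.18 at 2142 to 2703 nt and 0.21 at 813 to 1026 nt. Length-subtracted values of these lists are not given here. In stl the medians of these lists lay between -0.09 and 0.04 with no gene past 1.5-fold.

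The btl library also differed from its sibling in markers of tissues. In bulk RNA, fewer cells of a type and less RNA per cell cannot be told apart. Summed over the markers found, somite muscle (7 of 8 genes) stood at 42.9 CPM in btl and 192 in its sibling, with 140 in WT, 125 in stl and 246 in stl-sibling, so btl was the lowest. Notochord markers (5 of 5) stood at 216 CPM in btl and 750 in its sibling, with 572 in WT, 86.2 in stl and 902 in stl-sibling. The sums of both mutants thus lay below those of the normal libraries. A sum follows its most abundant genes, and single markers were not compared here. In the paper, in situ staining of later embryos showed noto expanded and col9a1b slightly expanded in btl. Its RNA-seq comparison listed somite muscle genes, and fewer notochord genes, among those most lowered in btl. Epidermis markers (3 of 4) stood at 4417 CPM in btl and at 7495 to 9285 in the others, neural markers (4 of 4) at 209 in btl and 216 to 280 in the others, and heart markers (4 of 4) at 197 in btl and 98.1 to 125 in the others. Blood markers (2 of 4) stood at 168 CPM in btl, 110 in btl-sibling and 169 to 186 in the rest. No marker found was at 0 in any library. The part of these shifts in the ribosomal protein values was not tested. Stl had the lowest notochord sum of all libraries and no ribosomal protein past 1.5-fold against its sibling. Whether tissue sums and ribosomal protein values are linked was not tested there either, with 1 library per group. The btl library was also the smallest, with 9147625 estimated reads, against 11487661 to 12220249 in the others, and its TMM factor was 0.914, against 0.980 to 1.05. Ribosomal proteins had at least 379 reads in every library.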

How the data were processed

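The authors pooled embryos, made 1 library per group, sequenced paired reads of 100 bp, trimmed them and quantified every annotated coding sequence of ASM164957v2 with Salmon (version 1.5.0). The values used are the estimated counts, not normalized, that the authors deposited for each coding sequence, and the TPM that they deposited beside them. Their NOISeq comparisons, which hold ratios and probabilities between libraries, their RPKM table and the joined table that repeats the counts were not used.

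Of 37181 coding sequences, 37146 could be placed in 22090 genes by the RefSeq table of the same assembly, the other 35 were left out, and counts and TPM were summed per gene. The length of a gene is that of its coding sequence with most reads. CPM used TMM factors (edgeR 4.0.16, R 4.3.3), and the log2 fold change is that of CPM + 0.5, which understates changes of scarce genes. Only genes averaging 2 CPM or more were kept, and a gene was counted as higher or lower at 1.5-fold, with 2-fold as a second threshold. Intervals are exact 95% Clopper-Pearson intervals of the read ratio. PCR reads without molecular identifiers are not independent molecules, so they cover counting error only. The length trend is the median of genes outside the members in 20 bins of length. With 1 library per group no model was fitted and no p-value computed, and library totals ran from 9147625 to 12220249. The calculation recovered large planted fold changes in simulated counts scaled by library size alone. That simulation left out TMM factors, the 1.5-fold threshold and variation between pools. The remaining work was done in Python 3.11.15 (scipy 1.17.1, pandas 2.3.3, numpy 2.4.6, matplotlib 3.10.9), and DESeq2 1.42.0 gave the alternative size factors.

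The members and gene lists were chosen with earlier results of these data known. The genes named are, for each mutant, the 5 highest and 5 lowest ribosomal proteins and translation factors, every member past 2-fold, the 5 most and 3 least abundant of each class, the 3 shortest ribosomal proteins and near copies with tissue-limited use. Associated genes, eif2ak kinases, subunits listed beside the extremes of their complex, and the ribosomal proteins under 1.5-fold were added after their values were seen. A few genes that this rule names are not reported here. Promoter and mRNA start sequences were not analysed here.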

Additional observations from a re-analysis of the deposited data

Results flagged for a closer look

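The median log2 fold change of the 77 ribosomal proteins was 1.0 in btl against btl-sibling and -0.05 in stl against stl-sibling. These medians have opposite signs, but the sign in stl is not stable: it was 0.13 against btl-sibling and 0.00 with the length trend subtracted. The median of the 44 translation factors was 0.18 in btl and -0.04 in stl. The difference between the lines was not tested in either case, since every group is 1 library. The stl values lie within the differences among the normal libraries.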

How the results depend on the processing

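In btl against its sibling the ribosomal protein median (1.0) was 0.80 without TMM factors, 0.41 in TPM, 0.69 against WT, 0.78 against stl-sibling, 0.81 against the mean of the normal libraries, 0.40 with the length trend subtracted and 0.42 with length and then level trends subtracted, and its count past 1.5-fold (64) was 22, 21 and 26 in TPM, with length and with both subtracted. The translation factor median (0.18) was -0.018 without TMM factors, -0.40 in TPM, 0.11 against WT and 0.26 with the level trend subtracted. Their count higher (8) was 4, 0 and 3 without TMM factors, in TPM and against WT, and 4 with length or both trends subtracted. Their count lower (1) was 2 without TMM factors, 10 in TPM, and 0 against WT, stl-sibling or the normal mean or with the level trend subtracted. In TPM and without TMM factors all genes shifted, to medians of -0.55 and -0.22. Counted relative to the median gene, the factors higher were 10 with TMM, 9 without and 8 in TPM, and the ribosomal proteins 64, 64 and 61. The lead of ribosomal proteins over factors (0.82) was 0.58 against WT, 0.58 against stl-sibling, 0.63 against the normal mean, and 0.22 with length or with both trends subtracted. In stl the ribosomal protein median (-0.05) was -0.16 against WT and 0.13 against btl-sibling, the factor median (-0.04) was -0.088 against WT, 0.0026 against btl-sibling and -0.0059 with both trends subtracted, and the lead (-0.01) was 0.13 against btl-sibling. Of 79 members past 1.5-fold, 6 turned in direction. In TPM rpl23a was at -0.0069 and rpl31 at -0.0025. With the length trend and with both trends subtracted, rpl31 was at -0.16 and -0.14, rpl28 at -0.099 and -0.080, rps15 at -0.057 and -0.038, rps27.2 at -0.074 and -0.11, and eif4ebp3l at -0.0024 and -0.0024. Beyond the shift of all genes, the cause was not tested. TMM factors computed without the members, and members under 300 nt left out, were chosen after seeing the data and left these medians within the spread of the normal libraries and these counts within 1.5 times. No paired analysis was possible because each group is 1 library and the labels carry no replicate numbers. Depth limits the scarcest genes, such as eef1akmt3 with as few as 14 reads, and eif4ea, whose interval in btl (0.30 to 0.89) includes 1.5-fold.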
